A study of Neurospora crassa with 24 samples.

Results

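The loss of VE-1 in *Neurospora crassa* was examined in vegetative mycelia grown in the dark, with 2 libraries of the Δ*ve-1* mutant and 2 libraries of the wild type, out of 24 libraries in the whole series. Both strains were described as OR74A background, and the mutant lacked *ve-1*, with no other allele given for either strain. The mycelia (V) grew submerged in Vogel's medium at 22°C, in constant darkness, until they were 48 h old, and poly(A) RNA of the total mycelium was sequenced. All genes of the count table were considered, 9758 in number, and the 7760 that passed the filter on low counts were tested. The same 2 strains after a light exposure of 30 min (light V, 4 libraries) and after 24 h in the dark (S, 8 libraries) were used only to ask whether the changes of the dark 48 h mycelia were also seen there. By the methods of the study, V grew in plates and S in agitated flasks, and the methods and the labels give different temperatures for S, so that age and these conditions cannot be told apart between V and S. Values are read counts in CPM after scaling by library size, which compare libraries for 1 gene and not 1 gene with another. As the RNA came from whole mycelia, a change in the amount of a cell type and a change in mRNA per cell cannot be told apart.

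VE-1 is the *N. crassa* member of the VeA proteins, which carry the velvet domain found in fungal regulators of development and secondary metabolism. In *Aspergillus nidulans*, VeA joins another velvet protein, VelB, and the putative methyltransferase LaeA in a complex that acts in the nucleus and couples spore formation to the synthesis of secondary metabolites. The *N. crassa* genes for the partners are *ve-2* and *lae-1*, and *vos-1* encodes a further velvet protein.

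The 4 dark V libraries held between 16450372 and 21885041 counts, with the mutant libraries at 18340957 or more and the wild-type libraries at 17298697 or fewer. A gene with 3 counts, taken as the smallest amount that a library can show, had between 0.137 and 0.182 CPM, a floor that covers counting error only. The log2 ratio of the 2 replicates had an SD over genes of 0.374 in the mutant, against 0.388 in the wild type. Transcripts of the 28 mitochondrial genes made up 0.00551% and 0.00543% of the counts in the mutant libraries, against 0.0196% and 0.00953% in the wild-type libraries, and the part of this difference in the results was not tested. Of 6 markers of conidia and aerial hyphae, which submerged mycelia should lack, *con-13* had no read in any library, and *con-6*, *con-8*, *con-10* and the hydrophobin gene *eas* lay between 0.0445 and 7.65 CPM. The summed level of the 6 markers was 17.5 and 18.9 CPM in the mutant and 23.5 and 27.9 CPM in the wild type, and most of it came from *fl*, which encodes a transcription factor that mycelia also express.

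The transcript of the deleted gene was measured first. *ve-1* (NCU01731, chromosome II, 2607929 to 2611456, plus strand, NC12 assembly) had 43 and 78 reads in the mutant libraries and 2388 and 1979 reads in the wild-type libraries. This corresponded to 2.38 and 3.47 CPM in the mutant, against 129 and 128 CPM in the wild type. *ve-1* mRNA was thus 43.4-fold lower in the mutant (log2FC −5.44, SE 0.18, adjusted p = 1.37e-06), as the labels of the strains require. Reads were counted over the whole gene, so that the remaining reads of the mutant were not placed within it.

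Both genes that flank *ve-1* were higher in the mutant. NCU01734, on the opposite strand and 3421 bases upstream, had 44 and 61 reads in the mutant and 5 and 0 reads in the wild type (log2FC 4.08, SE 0.59, adjusted p = 0.00344). Its log2FC was 3.22 without wild-type replicate 2, and 8.56 without wild-type replicate 1, where the wild type had no read left and the fitted value is no bound. NCU01729, on the same strand and 2549 bases downstream, was at 68.8 and 88.2 CPM in the mutant and at 37.7 and 35.9 CPM in the wild type (log2FC 1.09, SE 0.14, adjusted p = 0.00232). The other 8 genes within 5 positions of *ve-1* did not pass an adjusted p of 0.05, with log2FC between −0.58 and 0.45. The same 2 neighbors were higher in the mutant in light V, with log2FC of 1.69 (adjusted p = 0.015) for NCU01734 and 1.63 (adjusted p = 0.00038) for NCU01729. Whether the deletion itself altered transcripts of its neighbors was not tested.

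**Figure D1:**
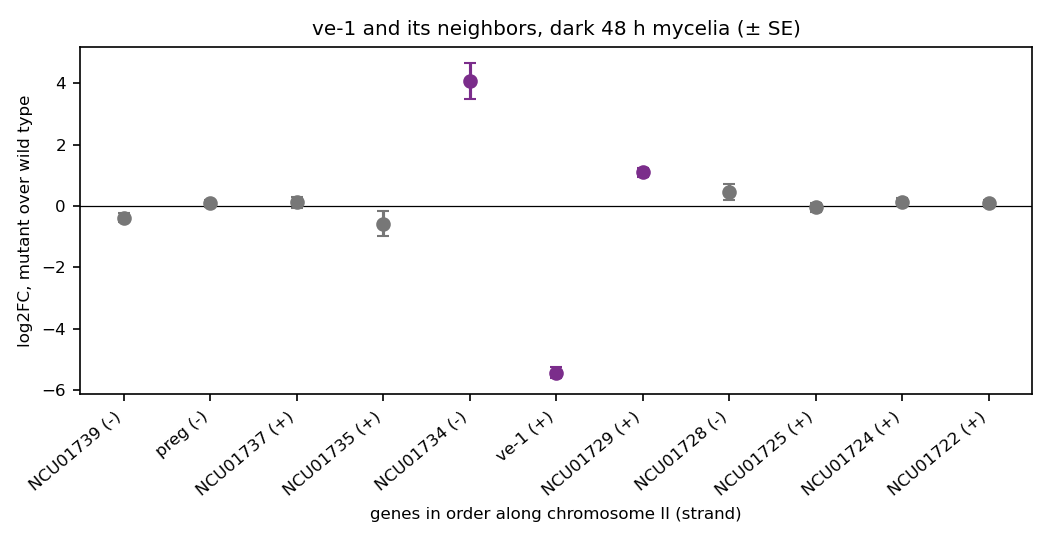
Log2FC of the mutant over the wild type in dark 48 h mycelia (y axis, bars are ± SE) for *ve-1* and the 5 genes on each side, in their order on chromosome II with the strand in parentheses; purple points passed an adjusted p of 0.05 and gray points did not. *ve-1* stands at −5.44, its flanking genes NCU01734 and NCU01729 at 4.08 and 1.09, and the other 8 genes lie between −0.58 and 0.45.

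Among the genes called, more were lower than higher in the mutant. A gene was called differentially expressed (DEG) at an absolute log2FC of at least 2 and an adjusted p under 0.001, and 53 of 7760 genes met this rule (0.683%). Of these, 44 were downregulated (0.567% of the genes tested) and 9 were upregulated (0.116%). At an adjusted p under 0.05 and any fold, 760 genes were called (9.79%), 487 of them lower in the mutant (6.28%) and 273 higher (3.52%). Small changes were evenly divided, with 184 genes lower and 186 higher among those called with an absolute log2FC under 1, whereas 178 were lower and 57 higher between 1 and 2, and 125 were lower and 30 higher at 2 or more. The median log2FC of all genes was 0.00753.

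By mean level, DEGs were 0 of 422 genes tested under 1 CPM, where edgeR called 18 at an adjusted p under 0.05, 13 of 2053 genes between 1 and 10 CPM (0.633%), 35 of 3995 between 10 and 100 CPM (0.876%) and 5 of 1290 above 100 CPM (0.388%). By chromosome, they made up 1.29% of the genes tested on chromosome VII (10 of 777) and 1.21% on chromosome VI (9 of 746), and between 0.459% and 0.776% on the other 5 nuclear chromosomes. In each of the 53 DEGs, the libraries of the strains did not overlap, as was also the case in 2180 (28.1%) of all genes tested in the direction of lower and 2121 (27.3%) in the direction of higher levels in the mutant. The number of DEGs depended on single libraries, being 17 without mutant replicate 1, 26 without mutant replicate 2, 21 without wild-type replicate 1 and 15 without wild-type replicate 2, and 12 of the 53 were called in each of these 4 fits. In the same order, these fits called 254, 457, 652 and 245 genes at an adjusted p under 0.05. DESeq2 called 116 genes on the same 8 V libraries, and edgeR called 180 with a block by replicate number. With all 24 libraries of the series in 1 fit, edgeR called only 2. All 53 DEGs kept their direction in the 12 alternatives. These refit the same counts, in which the strains did not overlap, so that a sign could hardly turn and this is no separate support.

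**Figure D2:**
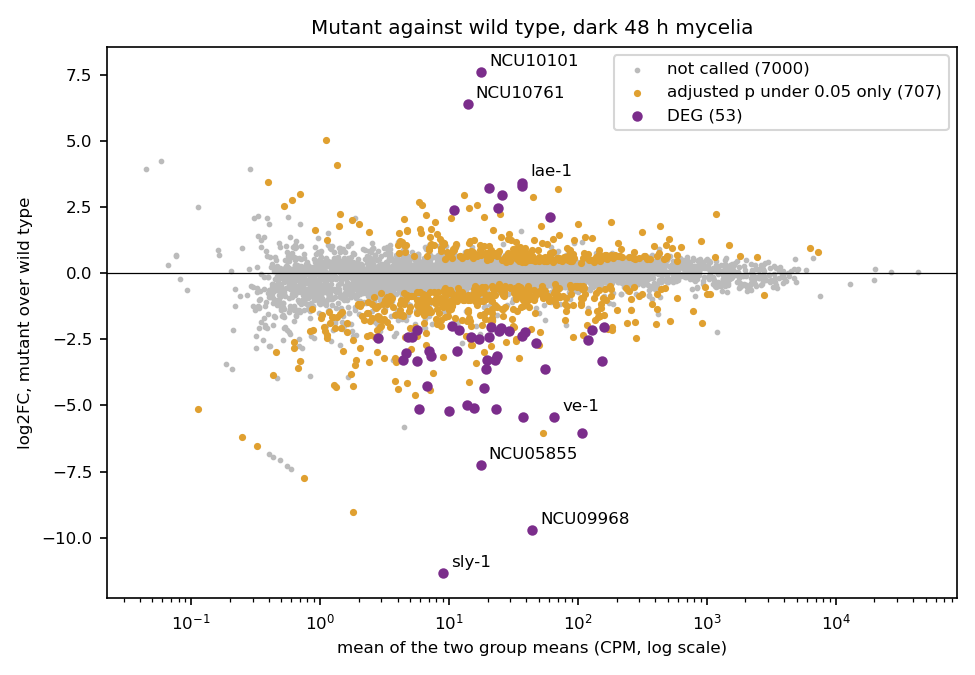
Log2FC of the mutant over the wild type (y axis) against the mean of the group means in CPM (x axis, log scale) for the 7760 genes tested in dark 48 h mycelia. Purple points are the 53 DEGs, orange points the other 707 genes with an adjusted p under 0.05 and gray points the 7000 genes not called; below a log2FC of −2 there are 44 DEGs, and above 2 there are 9.

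The deepest reductions were those of NCU09968 and NCU09969, a pair of overlapping genes on opposite strands of chromosome VI. NCU09969 (*sly-1*, 314113 to 320071, plus strand) is annotated by the study as a transposase, the enzyme that moves a DNA transposon. It had no read in either mutant library and 15.7 and 20.1 CPM in the wild-type libraries, at least 119-fold lower in the mutant when its mutant libraries are set to the floor of 3 counts each (adjusted p = 7.93e-05). NCU09968 (309546 to 315476, minus strand), a hypothetical protein gene that shares 1364 bases with *sly-1*, had 4 reads in the mutant libraries together and 3012 in the wild-type libraries. It was at 0.0554 and 0.134 CPM in the mutant, against 93.3 and 83.2 CPM in the wild type (log2FC −9.71, adjusted p = 2.12e-06), with a log2FC of −10.47 without mutant replicate 2. The ratio of the pooled levels was 898, with an exact binomial 95% interval of 350 to 3299 that covers counting error only. Reads were assigned by strand, so that each gene of the pair was measured on its own strand.

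Another gene that was almost silent in the mutant was NCU05855 (chromosome VII, 4065594 to 4068717), annotated as an *O*-methyltransferase. It was at 0.222 and 0.223 CPM in the mutant and at 36.5 and 33.5 CPM in the wild type, 153-fold lower in the mutant (log2FC −7.26, SE 0.21, adjusted p = 1.22e-06). The hypothetical protein gene NCU05126 varied more between replicates, at 1.83 and 4.5 CPM in the mutant and 148 and 275 CPM in the wild type (log2FC −6.03, SE 0.56, adjusted p = 0.000395), with a log2FC of −6.85 without mutant replicate 2. For both genes, the lowest wild-type library was more than 30 CPM above the highest mutant library.

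Several of the other strongly downregulated genes encode enzymes by the annotation of the study. NCU07737, annotated as salicylate hydroxylase, an oxidoreductase of aromatic compounds, was at 0.831 and 2.45 CPM in the mutant and 69.2 and 77.5 CPM in the wild type (log2FC −5.43, SE 0.36, and −6.46 without mutant replicate 2). NCU07619, an FAD-binding protein gene, was at 0.554 and 1.07 CPM in the mutant and 24.8 and 28.5 CPM in the wild type (log2FC −4.99, SE 0.32). Among genes of carbohydrate metabolism, *gh71-1* (NCU04691), annotated as an α-glucanase, was at 0.332 and 0.312 CPM in the mutant and 13.6 and 9.27 CPM in the wild type (log2FC −5.13, SE 0.48). The mannosyltransferase gene *gt32-1* (NCU08232), whose relative Och1 extends the sugar chains of glycoproteins in yeast, was at 0.942 and 0.846 CPM in the mutant and 27 and 34.2 CPM in the wild type (log2FC −5.09, SE 0.30). These 4 genes were between 31.8-fold and 43.1-fold lower in the mutant, with adjusted p values between 3.93e-05 for *gt32-1* and 0.000402 for *gh71-1*.

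The last 3 of the 12 strongest reductions were in genes with little annotation. NCU09428 was at 0.277 and 0.712 CPM in the mutant and 18.2 and 20.7 CPM in the wild type (log2FC −5.23, and −6.10 without mutant replicate 2). NCU07454, annotated as an interactor of MAC1, was at 1.39 and 1.16 CPM in the mutant and 30.4 and 59.8 CPM in the wild type. NCU04917 was at 1.55 and 2 CPM in the mutant and 34.6 and 37.5 CPM in the wild type (log2FC −4.32, SE 0.18, adjusted p = 6.1e-06). The remaining 32 downregulated genes had log2FC between −4.25 and −2.01.

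Only 9 genes were upregulated under the DEG rule, and 3 of them are methyltransferase genes. NCU10101 (chromosome IV, 5613863 to 5615538) was at 43 and 28.2 CPM in the mutant and at 0.324 and 0 CPM in the wild type (log2FC 7.60, SE 0.58, adjusted p = 0.000332). Its log2FC was 6.74 without wild-type replicate 2 and 12.34 without wild-type replicate 1, where the wild type had no read left and the fitted value is no bound. NCU10761 (chromosome IV, 3574180 to 3575417) was at 29 and 26.2 CPM in the mutant and at 0.432 and 0.194 CPM in the wild type (log2FC 6.39, SE 0.39, adjusted p = 4.41e-05), with a log2FC of 7.10 without wild-type replicate 1. *lae-1* (NCU00646, chromosome I, 7714560 to 7717622) was at 66.9 and 68.4 CPM in the mutant, against 6.64 and 5.9 CPM in the wild type, 10.8-fold higher in the mutant (log2FC 3.43, SE 0.13, adjusted p = 2.34e-06). *lae-1* differed little between replicates and was, with NCU09968, the only DEG called in all 12 alternatives.

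The other 6 upregulated genes had smaller changes. NCU09562 was at 83.2 and 50.1 CPM in the mutant and 8.26 and 5.18 CPM in the wild type (log2FC 3.30, SE 0.32), and it shares 1299 bases with a gene on the other strand. The epoxide hydrolase gene *eph-3* (NCU08783), whose enzyme opens the ring of epoxides with water, was at 44.7 and 28.9 CPM in the mutant and 4.91 and 2.98 CPM in the wild type (log2FC 3.20, SE 0.29). NCU00848, annotated as the integral membrane protein TmpA, which in *A. nidulans* belongs to a signaling pathway of conidiation, was at 49.6 and 42.7 CPM in the mutant and 6.8 and 4.86 CPM in the wild type (log2FC 2.97, SE 0.25). NCU01380, the putative receptor gene *gpr-38* (NCU09796) and NCU01032 had log2FC of 2.47, 2.38 and 2.12, with NCU01032 at 101 and 98.2 CPM in the mutant and 23.3 and 22.4 CPM in the wild type.

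**Figure D3:**
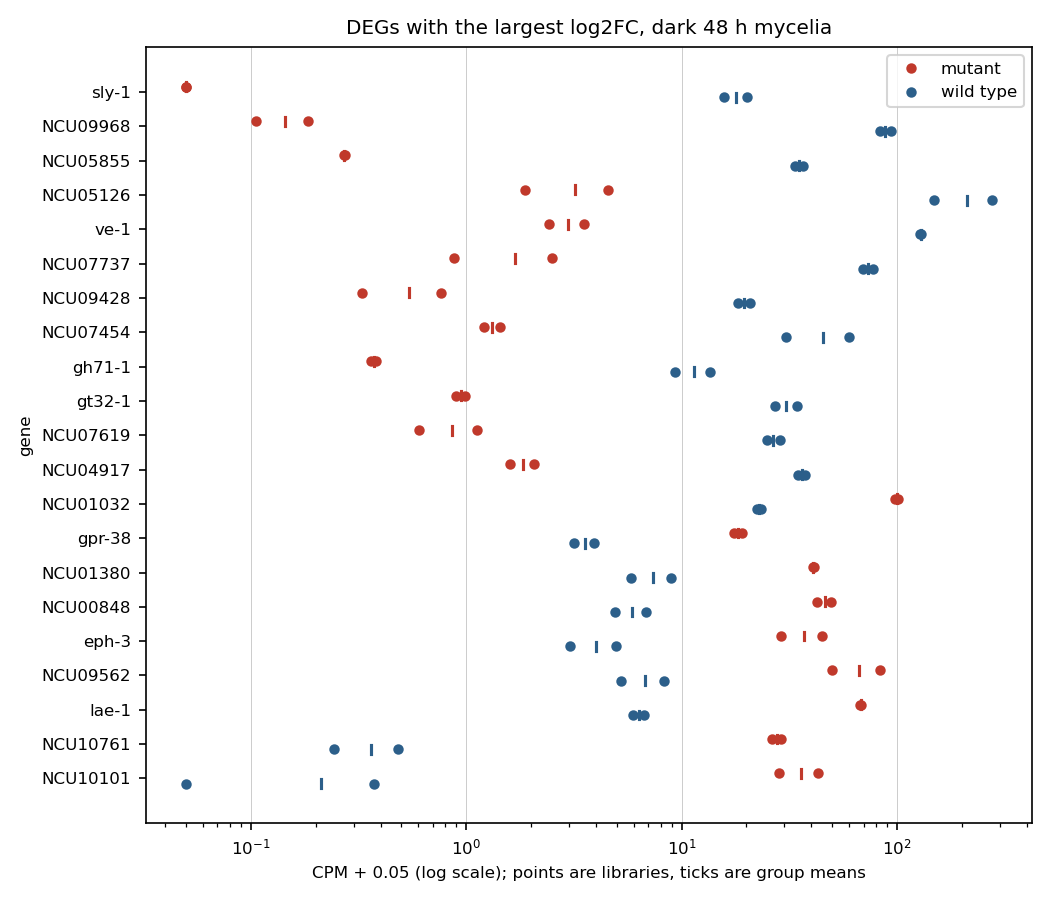
CPM of each library (x axis, log scale after adding 0.05) for the 12 DEGs with the most negative log2FC and the 9 with a positive log2FC among DEGs of at least 10 CPM in the higher strain, with mutant libraries in red above wild-type libraries in blue and a vertical tick at each group mean. The 2 libraries of a strain lie close together beside the gap between the strains, as for *lae-1* with 66.9 and 68.4 CPM in the mutant and 6.64 and 5.9 CPM in the wild type.

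The velvet list held 4 genes, *ve-1*, *ve-2* and *lae-1* of the complex and the further velvet gene *vos-1*. At an adjusted p under 0.05, 2 were lower in the mutant, 1 was higher and 1 was not called. Of all genes, 6.28% were lower and 3.52% higher. The median log2FC of the 4 genes was −1.09. Both the count of lower genes and the median include *ve-1*, whose direction was set by the deletion. Besides the deleted *ve-1* and the upregulated *lae-1*, the velvet gene *vos-1* (NCU05964) was lower in the mutant, at 1.55 and 2.89 CPM, against 9.18 and 12.9 CPM in the wild type (log2FC −2.28, SE 0.38, adjusted p = 0.0073, and up to 0.0629 without mutant replicate 1 or wild-type replicate 2). *ve-2* (NCU02775) was at 50 and 48.9 CPM in the mutant and 46.6 and 46.3 CPM in the wild type (log2FC 0.09, SE 0.11, adjusted p = 0.634). Of the called genes other than the deleted *ve-1*, *vos-1* was thus lower and *lae-1* higher.

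The LaeA-like methyltransferases, which share a fold with LaeA, were listed by the study from these same samples, so that their direction is not independent evidence. Of the 8 genes, all tested, 4 were lower in the mutant, 3 were higher and 1 was not called at an adjusted p under 0.05, and 4 were DEGs, where 9.79% of all genes were called and 0.683% were DEGs. NCU05855, *lae-1*, NCU10101 and NCU10761 are the DEGs described above. NCU00304, NCU05501 and NCU05832 fell by 1.76, 1.72 and 1.84 on the log2 scale. NCU00541 was not called, at a log2FC of 0.08.

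Transcription factor genes that the study listed as misregulated in the mutant in aerial tissue were also measured in the dark 48 h mycelia. They were chosen by the same strain contrast in other libraries of this series, so that their direction is not independent evidence. Of the 7 genes, 5 were lower in the mutant, none was higher and 2 were not called, where 6.28% of all genes were lower and 3.52% higher, with a median log2FC of −2.28 beside 0.00753 for all genes. *vad-12* (NCU05035) was the only DEG, at 1.83 and 2.32 CPM in the mutant and 8.15 and 10.4 CPM in the wild type (log2FC −2.15, SE 0.23, adjusted p = 0.000889). *sgr-28* (NCU08184) was at 13.8 and 14.2 CPM in the mutant and 25.1 and 31 CPM in the wild type (SE of the log2FC 0.16, adjusted p = 0.00569, and up to 0.0591 without mutant replicate 1 or wild-type replicate 2). *vib-1* (NCU03725), which encodes a regulator of heterokaryon incompatibility and of enzyme secretion, was not called (log2FC −0.35, SE 0.16, adjusted p = 0.191).

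The genes that govern conidiation, the formation of asexual spores on aerial hyphae, had log2FC between −0.51 and 0.64 in the submerged mycelia. Of 8 regulators, only *acon-3* was called at an adjusted p under 0.05, beside 9.79% of all genes. It was higher in the mutant (log2FC 0.64, adjusted p = 0.0363, at 8.28 CPM in the mutant and 5.3 CPM in the wild type on average). *fl*, the main activator of conidial genes, was at 15 and 14.3 CPM in the mutant and 17.1 and 17.9 CPM in the wild type (log2FC −0.25, SE 0.13, adjusted p = 0.255). *csp-1* and *acon-2* had log2FC of −0.51 and −0.36 and were not called. Of 6 conidiation genes, 4 were tested and none was called at an adjusted p under 0.05, beside the same share of all genes. *ccg-1*, a clock-controlled gene, was at 196 and 645 CPM in the mutant and 1026.5 and 2922 CPM in the wild type. It was not called (log2FC −2.23, SE 0.72, adjusted p = 0.088). However, *ccg-1* was called by edgeR on only the 4 dark V libraries (adjusted p = 0.0435) and with a block by replicate number (adjusted p = 3.42e-08).

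None of the 10 genes of photoreception and the circadian clock was called at an adjusted p under 0.05, beside 9.79% of all genes. With a block by replicate number, edgeR called *csp-1* (adjusted p = 0.0127) and *wc-2* (adjusted p = 0.0374) of this list. *wc-1*, which encodes the blue-light photoreceptor, and *wc-2*, which encodes its partner in the white collar complex, had log2FC of −0.30 (SE 0.26) and −0.35 (SE 0.14), and *frh*, which encodes a partner of the clock protein FRQ, had a log2FC of 0.22 (SE 0.13). The median of the 10 genes was −0.38.

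In the carotenoid pathway, 1 of 5 genes was called at an adjusted p under 0.05, where 9.79% of all genes were called. *al-2*, which encodes phytoene synthase and carotene cyclase, was at 18.5 and 16.4 CPM in the mutant and 47.9 and 41.9 CPM in the wild type (log2FC −1.37, SE 0.16, adjusted p = 0.00141). *al-1*, for phytoene desaturase, was at 9.75 CPM in both mutant libraries and at 17.6 and 4.34 CPM in the wild-type libraries, which lie on either side of the mutant. Its log2FC was −0.19 (SE 0.48, adjusted p = 0.846), and 1.17 without wild-type replicate 1 (adjusted p = 0.0272). *al-3* and *ylo-1* had log2FC of 0.16 and 0.31 and were not called.

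Among 6 antioxidant enzyme genes, 2 catalase genes were lower in the mutant and the other 4 were not called, where 6.28% of all genes were lower, with a median log2FC of −0.87. *cat-1*, for the catalase abundant in conidia, was at 33.8 and 39.1 CPM in the mutant and 142 and 226 CPM in the wild type (log2FC −2.34, SE 0.36, adjusted p = 0.00481, and 0.053 without mutant replicate 1). *cat-3*, for the catalase of growing hyphae, was at 81.8 and 70.2 CPM in the mutant and 216 and 191 CPM in the wild type (log2FC −1.42, SE 0.15, adjusted p = 0.000875). The superoxide dismutase gene *sod-2* had a log2FC of −0.39 (SE 0.18, adjusted p = 0.216).

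Of 79 genes with a symbol of a glycoside hydrolase, carbohydrate esterase or polysaccharide lyase family in the reference, 58 were tested, 7 were lower in the mutant and 2 were higher, where 6.28% and 3.52% of all genes were called in these directions. The median log2FC of the 58 genes was −0.10. *gh61-9*, of a family of enzymes that oxidize cellulose, was at 442 and 343 CPM in the mutant and 1288.5 and 1587 CPM in the wild type (log2FC −1.87, SE 0.18, adjusted p = 0.0005). The xylanase gene *gh11-1* was higher, at 48.5 and 33.2 CPM in the mutant and 11.2 and 6.16 CPM in the wild type (log2FC 2.22, SE 0.34, adjusted p = 0.00515, and 0.0524 without wild-type replicate 2). The pectinase genes *gh28-1* and *gh28-2* had log2FC of −1.78 (SE 0.59) and −2.07 (SE 1.53), with replicates of a strain further apart than the strain means in *gh28-2*, and were not called, while the edgeR fit of only the 4 dark V libraries called *gh28-1* (adjusted p = 0.0301). Genes whose family name comes only from the study, such as *gh71-1*, are not in this list.

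Of 5 trehalose and glycogen genes, 2 were higher in the mutant and 1 was lower at an adjusted p under 0.05, beside 3.52% and 6.28% of all genes. *tre-1*, for a trehalase that splits the storage sugar trehalose, was at 7.37 and 13.7 CPM in the mutant and 1.73 and 1.81 CPM in the wild type (log2FC 2.58, SE 0.38, adjusted p = 0.0039). The second trehalase gene, *tre-2*, was at 300 and 350 CPM in the mutant and 233 and 221 CPM in the wild type (log2FC 0.52, adjusted p = 0.041), and *ccg-9*, for a trehalose synthase, fell by 1.05 on the log2 scale (adjusted p = 0.0135). With 1 library left out, the call was lost without wild-type replicate 2 for *tre-1* (adjusted p = 0.0522), in each of the 4 fits for *tre-2* (up to 0.228) and without mutant replicate 1 or wild-type replicate 2 for *ccg-9* (up to 0.112). Of 5 transporter genes, 2 were higher in the mutant and none was lower, beside the same shares of all genes. *pmg* (NCU03509) was at 101 and 58.6 CPM in the mutant and 14.6 and 6.87 CPM in the wild type (log2FC 2.88, SE 0.54, adjusted p = 0.0119), a call that was lost without mutant replicate 1 or wild-type replicate 2 (up to 0.129), and its log2FC was 3.54 without wild-type replicate 1.

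The remaining lists held few calls, where 9.79% of all genes were called at an adjusted p under 0.05. The members of these lists were taken by their symbols or synonyms in the reference. Genes whose family name comes only from the study are not in them. Among these genes are the DEGs *gpr-16*, *gpr-38* and *gpr-39* (log2FC −3.27, 2.38 and −3.13). They also include the DEGs *cyp450-1* (NCU00732), *cyp450-23* (NCU00987) and *cyp450-11* (NCU05848), at log2FC of −3.63, −3.28 and −3.03. Of 6 polyketide synthase genes, 3 were tested, and *pks-3* was higher in the mutant, at 12.3 and 8.1 CPM, against 2.05 and 1.04 CPM in the wild type (log2FC 2.69, SE 0.33, adjusted p = 0.00177), with a log2FC of 3.29 without wild-type replicate 1. Of 9 receptor genes of the G protein-coupled type, 7 were tested, and *gpr-3* was lower (log2FC −0.61, adjusted p = 0.0353), but not without either mutant library or without wild-type replicate 2 (up to 0.214). Of 5 heterokaryon incompatibility genes, *het-6* was lower, at 7.09 and 8.42 CPM in the mutant and 14.7 and 15 CPM in the wild type (log2FC −0.93, SE 0.15, adjusted p = 0.0056, and 0.0639 without mutant replicate 1). None of 4 chitin synthase genes tested was called, with *chs-3* at a log2FC of 0.37 (adjusted p = 0.0788), nor was the 1 cytochrome P450 gene with a reference symbol. The 10 genes of cytosolic ribosomal proteins, which all growing cells use, had log2FC between −0.45 and 0.02 and none was called.

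**Figure D4:**
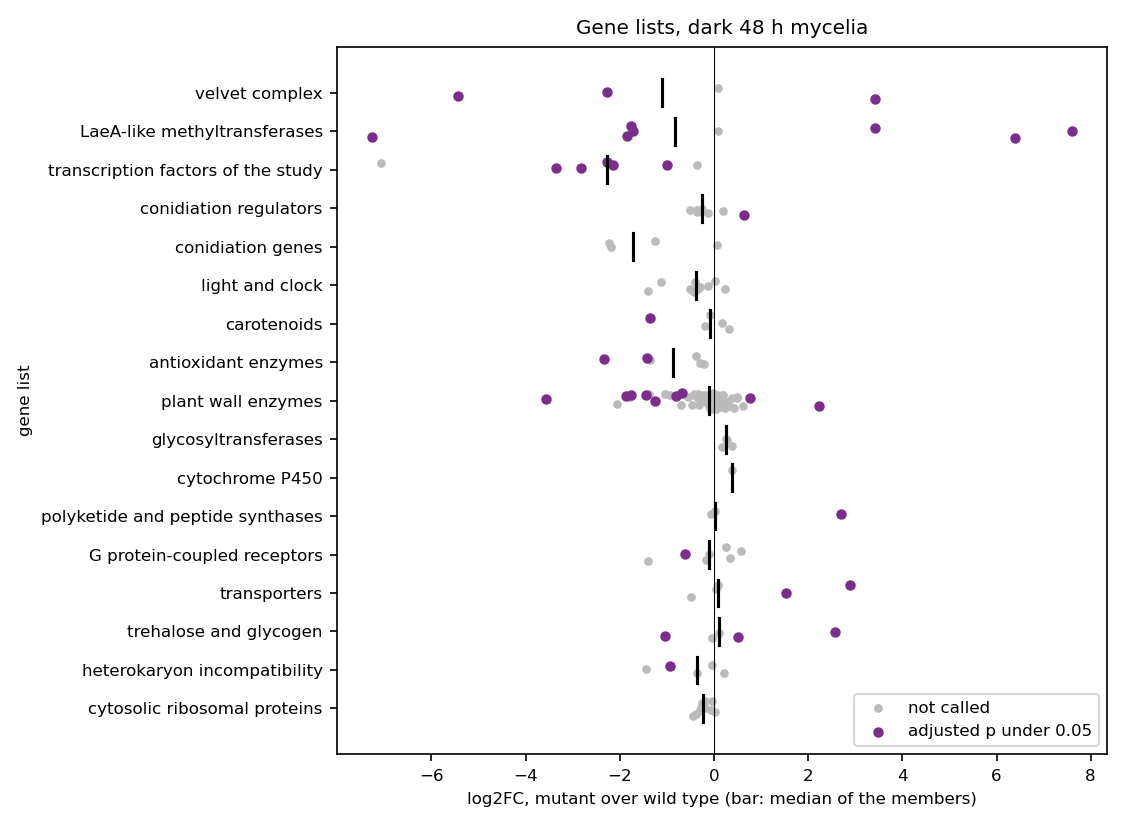
Log2FC of the mutant over the wild type in dark 48 h mycelia (x axis) for the tested members of 17 gene lists (rows), with purple points for an adjusted p under 0.05, gray points for genes not called and a black bar at the median of each list. The LaeA-like methyltransferases reach from −7.26 to 7.60, while the 10 ribosomal protein genes stay between −0.45 and 0.02.

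The position of the DEGs along the chromosomes was examined. Of the 53, 4 (7.55%) lay beside a DEG of the same direction, in 2 pairs that were both lower in the mutant. Of the genes tested, 0.683% were DEGs. This is a share per gene, whereas a DEG could have its partner on either side. The shares here and below are thus unlike measures, and no chance test was run. The first pair is NCU09968 and *sly-1*, which overlap. The second, on chromosome I between 8738672 and 8743498, is NCU02904, annotated as an α/β hydrolase, at 24.5 and 31.5 CPM in the mutant and 261 and 299 CPM in the wild type, and the membrane protein gene *gpr-16* (NCU02903), at 2.55 and 4.72 CPM in the mutant and 33.2 and 37.9 CPM in the wild type. Their log2FC were −3.32 and −3.27. Within 2 positions, 8 of the 53 DEGs (15.1%) had such a partner. At an adjusted p under 0.05 and an absolute log2FC of at least 1, 79 of 390 genes (20.3%) were in 37 runs of neighbors, the longest of 3 genes, where 5.03% of the genes tested met this rule.

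The strain difference of the dark 48 h mycelia was also measured in libraries that its calls did not contrast. In light V, 47 DEGs were called (0.606%) and 798 genes passed an adjusted p of 0.05 (10.3%). All 53 DEGs of the dark had the same direction and an adjusted p under 0.05, with 42 of them DEGs in the light. As the DEGs were chosen by their log2FC in dark V, smaller values in light V or S can follow from this choice. The 44 genes lower in the dark had a median log2FC of −3.08 in dark V, against −2.85 after light, and the 9 higher genes had medians of 3.20 in dark V, against 3.30 after light. NCU09968 and *sly-1* had no read in the light mutant libraries, at least 547-fold and 112-fold lower than in the wild type at the floor of 3 counts per library. NCU10101 had no read in the light wild-type libraries and was at least 356-fold higher in the mutant. The dark and the light libraries shared the estimate of dispersion. No gene passed an adjusted p of 0.05 for a difference of the strain effect between light and dark by edgeR, 189 of 7760 had an unadjusted p under 0.05, and DESeq2 called 2.

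In S, 1 library stood apart from its label's group. The S mutant library of replicate 1 had 15.6 CPM of *ve-1*, against 1.14 to 2.90 CPM in the other 3 S mutant libraries and 62.5 to 82.8 CPM in the 4 wild-type libraries. In the fit with all 8 S libraries, 225 genes passed an adjusted p of 0.05 (2.89%) and 1 was a DEG (0.0128%), whereas without this library 912 genes passed (11.7%) and 3 were DEGs (0.0386%). Leaving out mutant replicate 3 or 4 or wild-type replicate 1 or 2 in its place gave 72, 50, 75 and 65 genes. Of the 53 DEGs of dark V, 43 reached a mean of at least 1 CPM in a strain of S, and all 43 had the same direction there, with and without that library. Fewer passed the test in S, where 13 of the 44 lower and 5 of the 9 higher DEGs of dark V had an adjusted p under 0.05, and 20 and 7 without that library. The median log2FC of the 34 lower genes among them was −1.84 in S, and −2.61 without the library. That of the 9 higher genes was 2.04, and 2.31 without it.

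The other 10 DEGs, all lower in dark V, were under a mean of 1 CPM in both strains of S. NCU05855 had no read in any S mutant library and 0 to 0.22 CPM in the wild type, and NCU07619 was between 0 and 0.746 CPM in the mutant and between 0.0636 and 0.293 CPM in the wild type. NCU07619 was the 1 DEG of dark V with a log2FC of the other sign in S (0.83, adjusted p = 0.588). *lae-1* was higher in every S mutant library, from 21.4 to 48.8 CPM with a median of 42.1, against 6.89 to 9.47 CPM with a median of 8.52 in the wild type (log2FC 2.21, adjusted p = 0.00366). Without the mutant library of replicate 1, its log2FC was 2.44. No gene differed between dark V and S in the strain effect at an adjusted p of 0.05 by edgeR, with 314 of 7784 genes at an unadjusted p under 0.05 (466 of 7763 without that library) and 8 called by DESeq2. The common dispersion in the fit of dark V and S was 0.136, against 0.021 in V alone.

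**Figure D5:**
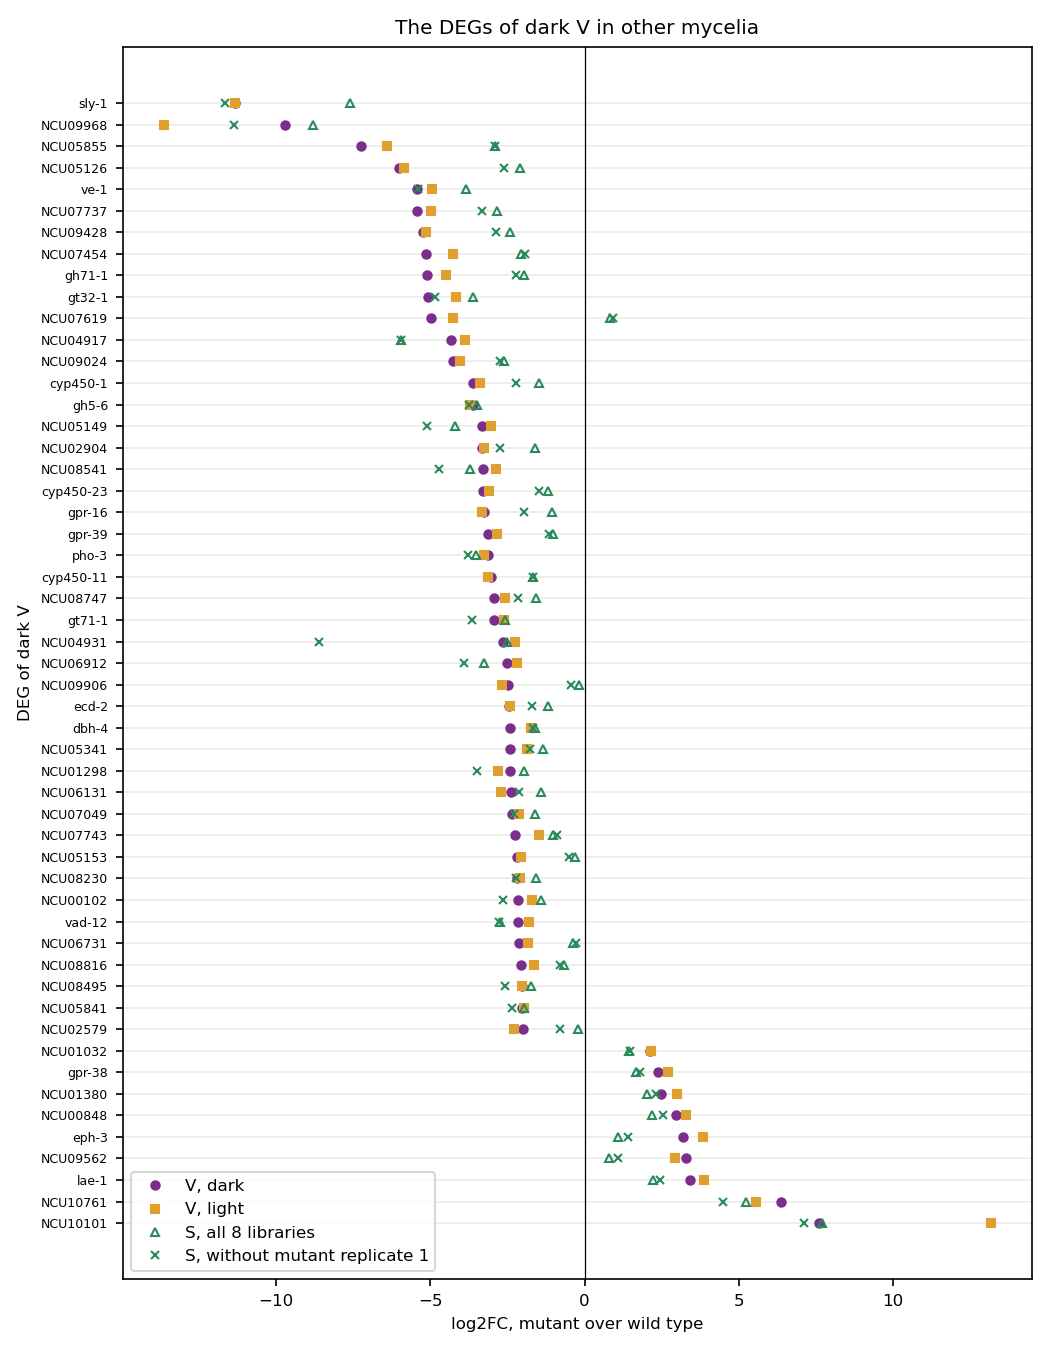
Log2FC of the mutant over the wild type (x axis) for the 53 DEGs of dark V (rows) in dark V (purple circles), light V (orange squares), S with all 8 libraries (green triangles) and S without mutant replicate 1 (green crosses). Values of light V lie near those of dark V, at medians of −2.85 and −3.08 for the lower genes. Values of S are smaller in size than in dark V for 38 of 44 lower and 8 of 9 higher genes. Without mutant replicate 1 these are 28 of 44 and 9 of 9. The genes were chosen by dark V, and smaller values elsewhere can follow from this choice. Rows with no reads in a strain, such as *sly-1*, have fitted values that are no bound.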

How the data were processed

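RNA-seq of 2 mutant and 2 wild-type cultures was analyzed within the fit of the 8 V libraries. The authors filtered the reads, aligned them to the NC12 assembly with TopHat2 (2.11 per the labels) and used SeqMonk for strand-specific counting over exons. They deposited raw counts of 9758 genes with no normalization. Symbols came from the RefSeq table of NC12 (9757 identifiers matched, 1118 with a symbol), and other names and descriptions from the annotation of the study. No genome sequence was used here.

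Counts were tested with the quasi-likelihood method of edgeR 4.0.16 in R 4.3.3 (TMM scaling, filterByExpr with a minimum count of 10, group means, Benjamini-Hochberg adjustment over all genes tested). S was fitted with the dark V libraries. SE is the log2FC divided by the square root of F. P values measure the spread between libraries within the groups of a fit, with a shared dispersion. There were 2 libraries per group in V and 4 in S. The labels number these libraries as replicates and the methods call them biological. Named were *ve-1* with 5 genes on each side, the 12 strongest DEGs in each direction with at least 10 CPM in the higher strain, DEGs in a list, neighboring DEGs and up to 4 members per list with at least 10 CPM. Some genes named outside this rule were picked with their values in view. These are *acon-3* and the other list members of lower level, *gpr-39*, the cytochrome P450 DEGs, and those in the closing section. The members and lists were chosen with earlier results of these data known. The alternatives were RLE scaling, library totals, no filter, DESeq2 1.42.0, fits of 4 or 24 libraries, a block by replicate number, a looser threshold and each library left out. The script was tested on simulated data.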

Additional observations from a re-analysis of the deposited data

Results flagged for a closer look

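Within the groups of 4 S libraries, 98 groups of values of the dark V DEGs were checked for 1 library far from the other 3, and 12 were found. Chance marks about 1 in 20 groups of this size only where values are independent and normally distributed. These groups share the same 8 libraries and some hold values at 0, so that the rate for them is not known. In 7 of them the library was mutant replicate 1. It was at 15.6 CPM for *ve-1*, with the other 3 mutant libraries at 1.14 to 2.90 CPM. For NCU09968 and *sly-1* it was at 0.653 and 0.508 CPM, where the others were at 0.0726 CPM or less and at 0. For NCU00102, NCU02579 and NCU04931 it was at 136, 46.5 and 2.10 CPM, with the others at 29.7, 17.7 and 0 CPM or less. For NCU01380 it was at 30.4 CPM, below the 81.6 to 88.2 CPM of the others. In these 7 genes, mutant replicate 1 lay above the other mutant libraries where dark V was lower in the mutant, and below them where it was higher. In the wild type of S, 1 library stood apart for NCU00102 (285 CPM), NCU06131 (3.42 CPM), NCU07454 (11.7 CPM), NCU07737 (20.4 CPM) and *gt32-1* (6.30 CPM). No library of dark V could be checked in this way, with 2 in a group.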

How the results depend on the processing

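The number of calls changed with the fit. All 53 DEGs of dark V kept their direction, which refits of the same non-overlapping libraries could hardly turn. Main values were 44 lower and 9 higher DEGs, and 487 lower and 273 higher genes at an adjusted p under 0.05. The DEGs were 94 lower and 22 higher with DESeq2 on the same 8 libraries, 95 and 24 with DESeq2 on 4, 1 and 1 with edgeR on all 24, 61 and 16 without the filter, and 125 and 30 at an adjusted p under 0.05 with the same fold. With 1 library left out, they were 13 to 20 lower and 2 to 6 higher. At an adjusted p under 0.05, edgeR on all 24 libraries called 31 lower and 8 higher genes, and the fits without 1 library called 172 to 442 lower and 60 to 210 higher. DESeq2 called 103 DEGs in light V in place of 47, 2 genes in the interaction of strain and light, 45 DEGs and 678 genes at an adjusted p under 0.05 in S, and 8 genes in the interaction of strain and stage, where edgeR called 0, 1, 225 and 0. Leaving out 1 S library gave 0 to 3 DEGs and 50 to 912 genes in S, and these fits were chosen after seeing the data. Neighboring DEGs numbered 8 within 2 positions, 10 within 5 (chosen after seeing the data) and 79 genes at the looser rule. The causes of these moves were not tested.

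Deviations of same-numbered libraries correlated by 0.411 between the strains in dark V, and by 0.385 to 0.549 over all pairs of V groups. The labels give no shared day or batch for these numbers, and V has only 2 replicate numbers. The numbers were therefore not taken to pair the samples, and whether they mark a shared effect was not tested. A block by replicate number called 153 lower and 27 higher DEGs, 1122 lower and 866 higher genes at an adjusted p under 0.05, 153 DEGs in light V, 19 genes in the interaction of strain and light, and 0 DEGs and 34 genes in S. It also called 13 named genes that were not called without it, among them *ccg-1* (adjusted p = 3.42e-08), *gh28-1* (2.71e-06), *csp-1* (0.0127) and *wc-2* (0.0374). Among named genes without a call, the log2FC turned its sign in some fits without 1 library, ranging over these fits from −0.86 to 1.17 for *al-1* (1.17 without wild-type replicate 1, adjusted p = 0.0272), −0.217 to 0.109 for NCU01725, −0.105 to 0.36 for NCU01737, −0.157 to 0.0681 for *tol*, −0.12 to 0.164 for *pks-1* (−0.0257 without mutant replicate 2, and −0.0011 in the fit of 4 libraries), −0.0171 to 0.212 for *gnn*, −4.73 to 0.394 for *gh28-2* and −0.366 to 0.304 for *pks-4*.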

Other observations

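A stretch of chromosome VII from NCU05832 to NCU05859 (3977446 to 4086497, NC12) held several of the genes described above and was chosen for this after its values were seen, so that no test is given. Of its 28 genes, 22 were tested, 9 were lower in the mutant and 4 were higher at an adjusted p under 0.05, that is 59.1% of those tested beside 9.79% of all genes. Besides the methyltransferase genes NCU05832 and NCU05855, it holds the DEGs NCU05841, annotated as UMTA, and *cyp450-11* (NCU05848), annotated as a cytochrome P450 monooxygenase. NCU05841 was at 62.4 and 63.1 CPM in the mutant and 254 and 257 CPM in the wild type (log2FC −2.03, SE 0.11), and *cyp450-11* was at 1.05 and 0.98 CPM in the mutant and 9.39 and 7.26 CPM in the wild type (log2FC −3.03, SE 0.28). At its end, the fatty acid oxygenase gene *fam-2* (NCU05858) was higher in the mutant, with 87 reads against 2 in the wild type, a ratio of 36.5 with a counting interval of 9.79 to 306 (adjusted p = 0.00332).

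Next to NCU07737 on chromosome V lie *pep5* (NCU07736) and *gpr-39* (NCU09823), and the 3 genes were lower in the mutant with log2FC of −5.43, −6.04 and −3.13. *pep5* was not a DEG because its adjusted p was 0.00194. The stretch of chromosome VI from NCU09968 to *gh71-1* (309546 to 397946) was also chosen after its values were seen, and both ends are DEGs. Of its 12 genes tested, 6 were lower in the mutant and none was higher at an adjusted p under 0.05, beside 6.28% and 3.52% of all genes.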
